A study of Mus musculus with 2 samples.

Results

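The 10 genes described here encode the CD3 chains (Cd3d, Cd3e and Cd3g), the zeta chain (Cd247), the constant regions of the alpha and beta chains of the T cell receptor (Trac, Trbc1 and Trbc2), the CD8 chains (Cd8a and Cd8b1) and Cd4. They are 10 of the 32285 gene entries in the count tables and were chosen by symbol, with their measured levels and ratios in these libraries already known, so the differences between diets are given as descriptions and not as tests. Mice labelled WT bore tumours of MC38-OVA, colon carcinoma cells of the mouse engineered to make ovalbumin, an antigen that T cells can recognise, and CD45+ cells were enriched from the tumours by magnetic sorting. The Sitagliptin library came from mice on the sitagliptin diet and the Control library from mice on the control diet. Sitagliptin is a diabetes drug that blocks the enzyme DPP4. Both libraries were made with a droplet kit that reads transcripts from the 5' end. There was 1 library per diet, so no difference below has a replicate check. How many mice were pooled, their age and their sex were not stated in the labels.

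CD3 delta, epsilon and gamma assemble with zeta dimers around the alpha and beta chains, and the whole complex is needed to bring the receptor to the cell surface and to signal. CD8 alpha pairs with CD8 beta on T cells that read MHC class I, while CD4 marks T cells that read MHC class II. Zeta is also used by NK cells, and CD4 and CD8 chains are known outside T cells, on dendritic cells of the mouse among others.

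Cd3g, Cd3d and Cd3e lie in a row on mouse chromosome 9, and the promoter windows are shown because these 3 genes did not keep a common ratio between the libraries. Each window runs from 250 bases before to 50 bases after the RefSeq start (GRCm38.p6), 5′ to 3′ on the gene's own strand. The windows are chr9:44980382-44980681 (minus strand, Cd3g), chr9:44981536-44981835 (plus strand, Cd3d) and chr9:45009562-45009861 (minus strand, Cd3e). Capitals mark matches, on either strand, to CAGGTG (an E-box core), AGGAAG (an ETS-like core) and TGACG (part of a cAMP response element).
Cd3g: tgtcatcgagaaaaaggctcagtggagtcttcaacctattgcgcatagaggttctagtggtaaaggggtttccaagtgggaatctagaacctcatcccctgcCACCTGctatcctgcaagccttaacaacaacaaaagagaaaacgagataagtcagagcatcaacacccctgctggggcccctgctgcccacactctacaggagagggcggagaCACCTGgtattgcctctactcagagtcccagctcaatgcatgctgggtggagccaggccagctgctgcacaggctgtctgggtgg
Cd3d: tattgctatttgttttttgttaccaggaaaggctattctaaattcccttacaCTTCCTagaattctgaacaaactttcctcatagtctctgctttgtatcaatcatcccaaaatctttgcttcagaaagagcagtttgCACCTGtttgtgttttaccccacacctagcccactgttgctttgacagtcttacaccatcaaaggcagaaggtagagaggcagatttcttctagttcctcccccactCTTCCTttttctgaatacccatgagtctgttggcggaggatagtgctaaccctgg
Cd3e: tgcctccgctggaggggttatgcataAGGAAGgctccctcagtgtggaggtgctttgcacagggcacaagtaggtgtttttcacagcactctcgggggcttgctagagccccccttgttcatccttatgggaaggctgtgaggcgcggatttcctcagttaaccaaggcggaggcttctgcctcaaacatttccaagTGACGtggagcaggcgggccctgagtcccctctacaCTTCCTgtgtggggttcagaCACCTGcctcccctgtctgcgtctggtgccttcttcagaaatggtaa
The windows of Cd3g and Cd3d point away from each other with 854 bases between them, and that of Cd3e begins 27726 bases beyond the end of the Cd3d window. CAGGTG was found, on either strand, in all 3 windows, and in 20.2% of 32851 mouse promoter windows of the same length. AGGAAG was found in those of Cd3d and Cd3e but not of Cd3g, against 35.4% of all windows. TGACG was found in the Cd3e window only, against 20.8% of all windows. TGTGGT (a RUNX core) and TATAAA were found in none of the 3. A match or its absence describes these letters and shows no binding. RefSeq windows were also available for Cd247 and Cd8a, which makes 5 of the 10 genes. CAGGTG and AGGAAG were found in the Cd247 window, and none of the motifs named above in that of Cd8a.

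The beta constant genes Trbc1 and Trbc2 are shown side by side because reads must be assigned between near-identical copies. In the GENCODE M21 transcripts Trbc1-202 and Trbc2-201, both from chromosome 6, the first 382 bases differ at 1 position, C260A, counted from the first base of the transcript with the Trbc1 base first. Bases 241 to 480 follow, with the 15 differing positions in capitals.
Trbc1: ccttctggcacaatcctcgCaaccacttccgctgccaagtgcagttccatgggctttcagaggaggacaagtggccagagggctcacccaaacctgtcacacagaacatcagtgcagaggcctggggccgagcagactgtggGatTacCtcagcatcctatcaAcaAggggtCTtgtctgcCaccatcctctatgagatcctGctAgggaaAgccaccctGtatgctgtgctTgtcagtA
Trbc2: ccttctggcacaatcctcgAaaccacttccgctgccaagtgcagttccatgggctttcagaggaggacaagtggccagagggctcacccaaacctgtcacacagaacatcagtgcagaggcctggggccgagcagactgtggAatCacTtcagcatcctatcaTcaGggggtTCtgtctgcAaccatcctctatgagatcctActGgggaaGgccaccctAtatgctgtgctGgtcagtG
Reads from a 5' library start on the V segment side of the constant exon, where the copies are the same. How the authors' counting assigned such reads is not stated in the labels, so every split between Trbc1 and Trbc2 below is uncertain and their sum is given beside it.

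The Sitagliptin library held 9766 barcodes and 76788699 UMIs (unique molecules counted), with a median of 5158.5 UMIs per barcode, and the Control library 8694 barcodes and 64139749 UMIs, with a median of 5074. All barcodes had at least 2001 UMIs. The libraries share 132 barcode sequences, of which 6 fell among the Sitagliptin T cells and 5 among the Control T cells. Barcodes were sorted into classes by UMIs of marker lists, each time leaving out the gene that was read, so the class names are rebuilt from markers and are not the authors'. With all markers in use, T cells were 386 and 208 barcodes in the Sitagliptin and Control libraries, NK cells 113 and 67, plasmacytoid dendritic cells (pDC) 25 and 12, and macrophages 5143 and 4174. Barcodes with T cell UMIs that also carried macrophage UMIs numbered 560 and 613 at high macrophage levels, called mixed barcodes, and 94 and 76 at low levels, called intermediate barcodes. Mixed barcodes had a median of 12531 UMIs in the Sitagliptin library and 10243 in the Control library, against 3398 and 3541 in T cells. They held 1221 and 1358 CPM (UMIs per 1000000 UMIs of the class) of the macrophage gene C1qa, against 15.8 and 12.9 CPM in T cells. C1qa was on the macrophage list used to separate these classes, so this contrast is in part set by rule. The highest 6% of doublet scores took in 13.6% of Sitagliptin and 12.2% of Control mixed barcodes, against 2.59% and 0% of T cells. Of intermediate barcodes it took in 25.5% in the Sitagliptin and 2.63% in the Control library, and the part of this in the values of intermediate barcodes was not tested. Without the shared barcode sequences the Cd3e ratio in T cells given below was 1.59, Trbc1 1.64 and Cd8b1 1.35.

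All 14 markers of the T cell list were detected in the T cells of both libraries. Markers of other cell types were read in the T cells too. Summed NK list genes stood at 855 CPM in Sitagliptin and 928 CPM in Control T cells, with 10 of 11 genes and 11 of 11 genes detected and Klra8 at 0 in the Sitagliptin library. The 13 macrophage genes were all detected and summed to 243 and 258 CPM. The 6 monocyte genes were also all detected, at 943 CPM in Sitagliptin and 1086 CPM in Control T cells. The 6 genes of the regulatory T cell list (Foxp3, Ikzf2, Il2ra, Tnfrsf4, Tnfrsf18 and Ctla4) were all detected and summed to 1460 and 1852 CPM. The list of group 2 innate lymphoid cells summed to 574 and 590 CPM, with Il17rb at 0 in both libraries. The 9 genes of the cycling list summed to 1079 CPM in Sitagliptin T cells and 1519 CPM in Control T cells. Gzmb, a granzyme of killer cells, had 2541 and 3679 CPM. Their part in the differences between the diets was not tested, apart from the subsets given further on.

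Among the CD3 chains, Cd3e differed between the T cells of the libraries, while Cd3d and Cd3g differed little. Cd3e, whose product carries, besides its signalling motif, a proline-rich stretch that binds the adaptor Nck, had 741 UMIs in 363 Sitagliptin T cells and 255 UMIs in 204 Control T cells. Its level was 476 CPM (95% interval 442 to 511) in the Sitagliptin library and 305 CPM (269 to 345) in the Control library, a ratio of 1.56 (1.35 to 1.81). Intervals here and below cover counting error only. Cd3d had 675 CPM (634 to 717) in Sitagliptin T cells and 697 CPM (639 to 757) in Control T cells, a ratio of 0.969 (0.873 to 1.08). Cd3g had 478 and 527 CPM, a ratio of 0.907 (0.805 to 1.02). Cd247, the signalling zeta chain, had 123 CPM (106 to 141) and 116 CPM (94.2 to 141), a ratio of 1.06 (0.829 to 1.36). The intervals of Cd3e did not overlap between the libraries, and those of the other 3 chains did. How often intervals fail to overlap over all genes was not counted. By the fold limits given below, 34.9% of all genes in T cells were called higher or lower.

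The difference in Cd3e was seen per barcode as well as in the sums. Cd3e was found in 295 of 363 Sitagliptin T cells (81.3%, 95% interval 76.9 to 85.1) and in 139 of 204 Control T cells (68.1%, 61.3 to 74.5). After each barcode was thinned to 2000 UMIs the shares were 58.7% and 44.6%, at median depths before thinning of 3480 and 3526.5 UMIs. At least 3 Cd3e UMIs were found in 33.3% of Sitagliptin and 13.2% of Control T cells, whereas for Cd3d these shares were 47.9% and 50.8% and for Cd3g 35.5% and 35.9%. With the 3 CD3 chains left out of the class call, all 3 were seen together in 156 of 244 Sitagliptin T cells (63.9%) and in 72 of 131 Control T cells (55.0%). Such shares are read beside those of macrophages. Among all macrophages Cd3e was found in 3.13% of Sitagliptin and 2.73% of Control barcodes, or 2.02% and 1.66% after thinning. Among macrophages with no other T cell list UMI, Cd3e was found in 1.99% of Sitagliptin barcodes and 1.63% of Control barcodes (median 6070.5 and 4938 UMIs), or 1.41% and 0.931% after thinning. The source of these UMIs was not tested.

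For the receptor constant genes, Trbc1 was higher in Sitagliptin T cells, and Trac and Trbc2 were close to even. Trac, the only alpha constant gene, had 168 CPM (148 to 189) in Sitagliptin T cells and 185 CPM (157 to 216) in Control T cells, a ratio of 0.909 (0.743 to 1.11). Trbc2 had 486 and 532 CPM, a ratio of 0.913 (0.811 to 1.03). Trbc1 had 298 UMIs in 379 Sitagliptin T cells and 92 UMIs in 205 Control T cells, which gave 184 CPM (163 to 206) and 109 CPM (87.5 to 133) and a ratio of 1.69 (1.33 to 2.16). The sum of Trbc1 and Trbc2 was 672 CPM in Sitagliptin and 642 CPM in Control T cells, a ratio of 1.05 (0.942 to 1.16). The sum was closer to even than Trbc1 alone.

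The CD8 chains parted in opposite directions. Cd8b1, the beta chain found on conventional CD8 T cells, had 717 UMIs in 386 Sitagliptin T cells and 276 UMIs in 208 Control T cells, or 436 CPM (405 to 469) against 323 CPM (286 to 364), a ratio of 1.35 (1.17 to 1.56). Cd8a, the alpha chain, had 444 CPM (412 to 477) in Sitagliptin and 547 CPM (498 to 599) in Control T cells, a ratio of 0.812 (0.722 to 0.914), just short of the limit of 0.8 used for a lower call. It passed that limit in T cells with no cycling-list UMI (0.653), with no macrophage-list UMI (0.764) and with the limit on macrophage UMIs divided by 2 (0.770), and stood at 0.948 (0.887 to 1.01) with intermediate and mixed barcodes counted as T cells. Summed over both chains the level was 880 CPM in the Sitagliptin and 869.8 CPM in the Control library, a ratio of 1.01 (0.925 to 1.11). Cd4 was low in T cells, with 44 UMIs (26.7 CPM, 19.4 to 35.9) in the Sitagliptin library and 22 UMIs (25.8 CPM, 16.1 to 39.0) in the Control library, and the ratio of 1.04 had an interval of 0.609 to 1.82.

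A gene was called higher at a ratio of at least the inverse of 0.8 and lower at 0.8 or less. In T cells 3 of the 10 genes were called higher (Cd3e, Trbc1 and Cd8b1) and 0 lower, where 13.5% of 5887 genes with at least 50 UMIs were higher and 21.3% lower. The median ratio was 0.955 over all these genes. In intermediate barcodes 2 of the 9 genes with enough UMIs were higher (Cd3e at 1.42 and Trbc1 at 1.28) and 0 lower, against 15% and 18.9% of 3922 genes. The Cd3e interval there ran from 1.08 to 1.87, while that of Trbc1 (0.783 to 2.13) includes 1, and after thinning the Sitagliptin share of intermediate barcodes with Trbc1 was 0.884 times the Control share. In mixed barcodes 1 of 10 was higher (Cd3e) and 0 were lower, against 8.12% and 11.1% of 9890 genes. Cd3d stood there at 0.806 (0.747 to 0.869), just short of the lower limit, and Cd8a at 0.890 (0.818 to 0.969).

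**Figure D1:**
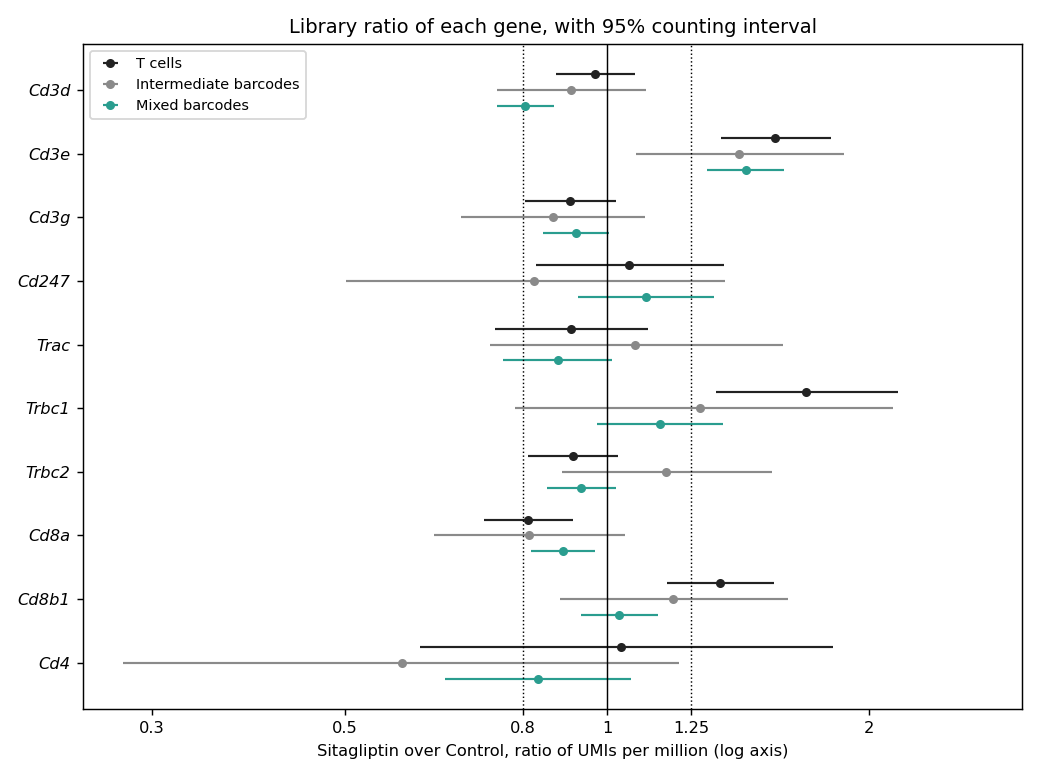
Ratio of CPM, Sitagliptin over Control, for each of the 10 genes on a log axis; points are the ratio in T cells, intermediate barcodes and mixed barcodes, bars are 95% counting intervals, and dotted lines mark 0.8 and its inverse. Cd3e lies between 1.42 and 1.56 in all 3 kinds of barcodes, while Cd8b1 lies at 1.35 in T cells and 1.03 in mixed barcodes.

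Ratios between chains of the same barcodes do not depend on the class total. They depend on how well each transcript is captured, so they are read only between libraries and classes. In T cells there were 0.704 Cd3e UMIs per Cd3d UMI (0.638 to 0.777) in the Sitagliptin library and 0.437 (0.372 to 0.512) in the Control library, so that the Sitagliptin ratio was 1.61 times the Control ratio (1.34 to 1.94). The Cd3g per Cd3d ratio was 0.732 in Sitagliptin and 0.749 in Control T cells, 0.978 times (0.829 to 1.15). Cd3e per Cd3g stood at 0.948 and 0.575, 1.65 times (1.364 to 1.998). Cd3e was higher relative to both Cd3d and Cd3g, and the interval for the ratio between Cd3g and Cd3d includes 1.

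Cd3e per Cd3d was higher in the Sitagliptin library in the other kinds of barcodes too. It was 0.650 and 0.415 in intermediate barcodes (1.56 times, 1.11 to 2.21) and 0.751 and 0.428 in mixed barcodes (1.75 times, 1.54 to 1.998). Over all barcodes, T cells included, it was 0.726 and 0.437 (1.66 times, 1.53 to 1.81). In the macrophage class, where few UMIs of the chains were found per barcode, the values were 0.725 and 0.504 (1.44 times, 1.12 to 1.84). Cd3e itself was not higher in Sitagliptin macrophages, with a CPM ratio of 0.967 (0.768 to 1.22), while that of Cd3d was 0.615 (0.519 to 0.729). Cd3g per Cd3d in mixed barcodes was 0.795 and 0.702 (1.13 times, 1.01 to 1.28), and in macrophages 0.795 and 0.559 (1.42 times, 1.11 to 1.81), where Cd3d itself had 7.38 CPM in Sitagliptin and 11.99 CPM in Control macrophages. Cd3e per Cd3g was 1.62 times as high in mixed barcodes (1.41 to 1.85) and 1.05 times in macrophages (0.786 to 1.41). In mixed barcodes the CPM ratio between libraries was 1.44 for Cd3e and 0.806 for Cd3d, so both enter the 1.75 times of Cd3e per Cd3d.

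Within T cells the Cd3e shift was found in 8 overlapping subsets, each with an interval above 1. Among T cells with no cycling-list UMI, Cd3e per Cd3d was 0.705 in 172 Sitagliptin and 0.405 in 73 Control barcodes (1.74 times, 1.29 to 2.35), and among those with such a UMI 0.703 and 0.455 (1.54 times, 1.22 to 1.95). Among T cells with a CD8 chain UMI it was 0.714 and 0.452 (1.58 times, 1.29 to 1.93), and among those with none 0.646 and 0.370 (1.75 times, 1.09 to 2.80). With no macrophage-list UMI at all the values were 0.697 and 0.439 (1.59 times, 1.197 to 2.11), and with at least 1 they were 0.708 and 0.436 (1.63 times, 1.27 to 2.08). In the shallower T cells, at or under the median depth, the shift was 2.01 times (1.44 to 2.80), and in the deeper ones 1.46 times (1.17 to 1.82). In the 12 Sitagliptin and 7 Control T cells with a UMI of Foxp3, the regulatory T cell factor, the value was 1.21 times (0.507 to 2.89).

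**Figure D2:**
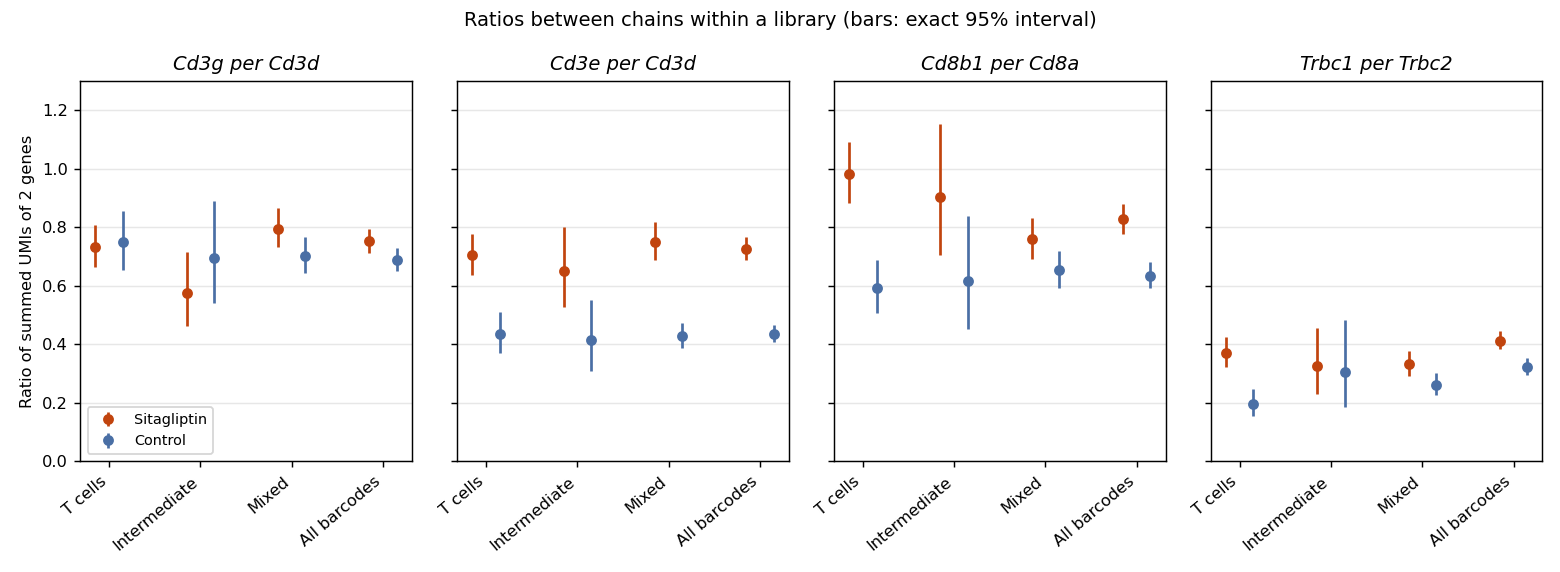
Summed UMIs of one chain divided by those of another in T cells, intermediate barcodes, mixed barcodes and all barcodes, Sitagliptin left of Control; bars are exact 95% intervals. Cd3g per Cd3d lies at 0.732 and 0.749 in T cells, whereas Cd3e per Cd3d is higher in the Sitagliptin library in every kind of barcode shown.

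Cd8b1 per Cd8a differed more between the T cells of the libraries than between their mixed barcodes. It was 0.982 (0.885 to 1.09) in Sitagliptin T cells and 0.591 (0.507 to 0.687) in Control T cells, 1.66 times (1.39 to 1.99). In mixed barcodes it was 0.759 and 0.654, 1.16 times (1.02 to 1.32), an interval that lies below that of T cells. Among T cells with a Cd8a UMI, Cd8b1 had 589 CPM in 238 Sitagliptin and 458 CPM in 135 Control barcodes, a ratio of 1.29 (1.11 to 1.49). Among T cells with a Cd8b1 UMI, Cd8a had 603 CPM in 243 Sitagliptin and 781 CPM in 119 Control barcodes, a ratio of 0.773 (0.681 to 0.878). Cd8a was lower in Sitagliptin T cells with no cycling-list UMI, at 390 CPM in 225 Sitagliptin and 596 CPM in 97 Control barcodes (0.653, 0.542 to 0.789), and close to even with such a UMI (489 and 518 CPM, 0.944, 0.811 to 1.10). Cd8b1 differed by 1.27 times (1.02 to 1.60) and 1.40 times (1.17 to 1.69) in the same subsets.

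The share of T cells with a CD8 chain UMI was close in the libraries, and the shares with a single CD8 chain lay further apart, with overlapping intervals. A CD8 chain UMI was found in 275 of 386 Sitagliptin T cells (71.2%, 66.5 to 75.7) and in 148 of 208 Control T cells (71.2%, 64.5 to 77.2). Cd8a and Cd8b1 were seen together without Cd4 in 52.6% of Sitagliptin and 50% of Control T cells. Cd8a was the only coreceptor seen in 8.03% of Sitagliptin (5.52 to 11.2) and 13.9% of Control T cells (9.54 to 19.4), and Cd8b1 the only one in 9.59% (6.84 to 12.97) and 5.77% (3.02 to 9.86). Cd4 was found in 24 Sitagliptin (6.22%) and 13 Control T cells (6.25%), and only 4 and 3 of these also had a CD8 chain UMI. No coreceptor was seen in 23.6% and 24.0%. A barcode without a UMI of a gene is not a cell without it at this depth. In macrophages with no T cell list UMI, at a median of 6193 UMIs in the Sitagliptin and 4981 in the Control library, Cd8a was found in 2.40% and 2.04% of barcodes, Cd8b1 in 1.12% and 1.18%, and Cd4 in 0.446% and 0.444%.

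**Figure D3:**
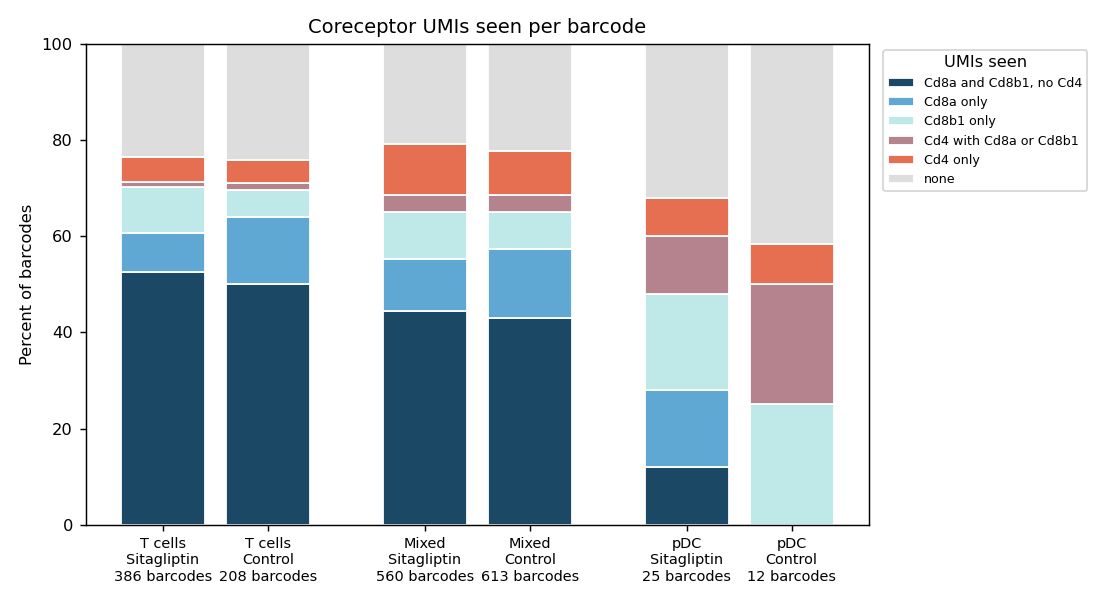
Percent of barcodes with each combination of Cd8a, Cd8b1 and Cd4 UMIs in T cells, mixed barcodes and pDC, Sitagliptin left of Control; the number of barcodes is under each bar. Barcodes with Cd4 only take 10.5% and 9.30% of mixed barcodes, and 5.18% and 4.81% of T cells.

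Among T cells and mixed barcodes, those with UMIs of both beta constant genes were more frequent in the Sitagliptin library, with overlapping intervals in T cells. Of T cells with at least 3 UMIs of Trbc1 and Trbc2 together, 97 of 162 Sitagliptin barcodes (59.9%, 51.9 to 67.5) and 31 of 75 Control barcodes (41.3%, 30.1 to 53.3) had UMIs of both copies. Trbc2 alone was seen in 37.0% and 57.3%, and Trbc1 alone in 5 and 1 barcodes. In mixed barcodes both copies were seen in 62.7% (55.5 to 69.5) and 46.6% (39.0 to 54.3). In NK cells they were seen in 16 of 24 Sitagliptin (66.7%) and 6 of 9 Control barcodes (66.7%). A T cell as a rule uses a single beta constant gene in its receptor; how many of the barcodes with both copies come from shared reads was not tested. In T cells Trbc1 per Trbc2 was 0.372 in the Sitagliptin and 0.197 in the Control library, 1.89 times (1.44 to 2.47), against 0.333 and 0.262 in mixed barcodes, 1.27 times (1.05 to 1.54). Trac per beta constant UMI was 0.252 and 0.294 in T cells, 0.859 times (0.684 to 1.08).

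Per barcode, mixed barcodes carried fewer UMIs than T cells of several of these genes, at a higher total depth. Cd3d had 2.59 UMIs per mixed barcode and 2.95 per T cell in the Sitagliptin library, and 2.62 and 2.99 in the Control library, which is 0.877 times in each. Over Cd3d, Cd3e, Cd3g, Cd247, Trac, Trbc1, Trbc2, Cd8a and Cd8b1, mixed barcodes had between 0.783 times (Trbc1) and 1.03 times (Cd8a) the UMIs per T cell in the Sitagliptin library, and between 0.744 times (Trbc2) and 0.952 times (Trbc1) in the Control library. The interval lay below 1 for 4 of these 9 genes in the Sitagliptin library (Cd3d, Trbc1, Trbc2 and Cd8b1) and for 6 in the Control library (Cd3d, Cd3e, Cd3g, Cd247, Trbc2 and Cd8a). The share of all genes with such an interval was not counted, so these counts are not read as particular to the 9 genes. Cd4 was higher per mixed barcode than per T cell in both libraries. It had 0.236 UMIs per mixed barcode and 0.114 per T cell in the Sitagliptin library (2.07 times, 1.46 to 2.98), and 0.227 and 0.106 in the Control library (2.14 times, 1.36 to 3.53). Cd4 was seen in 79 of 560 Sitagliptin and 78 of 613 Control mixed barcodes (14.1% and 12.7%). Cd4 per Cd8a was 0.121 and 0.129 in mixed barcodes, against 0.060 and 0.047 in T cells. Macrophages with no T cell list UMI had 0.676 CPM of Cd4 in the Sitagliptin library and 0.817 CPM in the Control library, while mixed barcodes had 18.0 and 21.6 CPM. T cells had 26.7 and 25.8 CPM of Cd4, so on the CPM scale Cd4 was lower in mixed barcodes. Foxp3 stood at 3.95 and 4.50 CPM in mixed barcodes and 12.2 and 15.2 CPM in T cells. CPM is taken over all UMIs of a class, and mixed barcodes had more UMIs each, so it does not give levels per barcode.

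**Figure D4:**
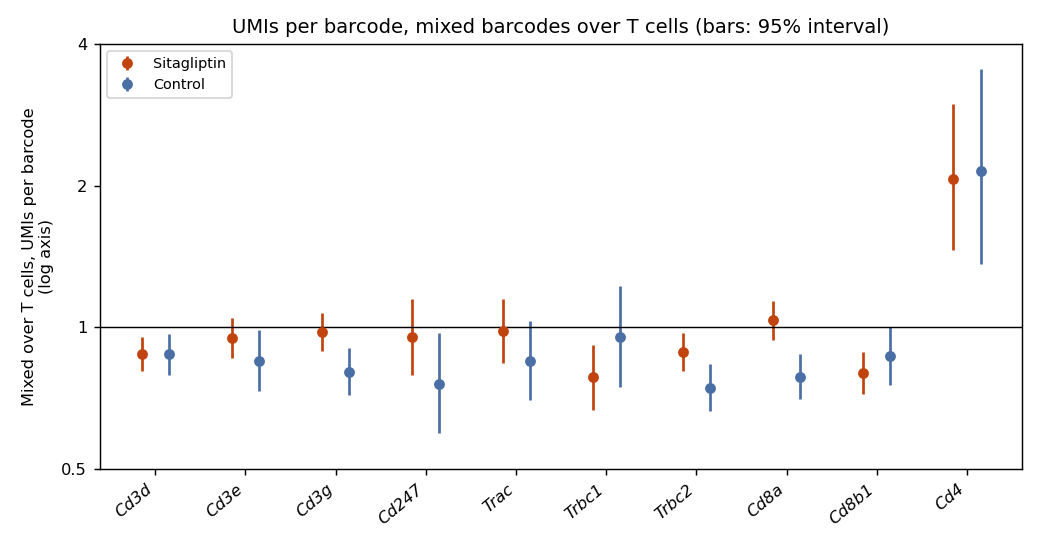
UMIs per mixed barcode divided by UMIs per T cell for each gene on a log axis, Sitagliptin left of Control, with 95% counting intervals. The CD3, receptor and CD8 genes lie between 0.744 and 1.03, and Cd4 lies at 2.07 and 2.14.

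NK cells shared some of these genes with T cells. Read one at a time, CD3 chains and Trac were low there, in part by rule, since NK cells were called with a limit on T cell list UMIs other than the gene read. With the 3 CD3 chains left out of the class call they summed to 90 UMIs in 125 Sitagliptin and 44 UMIs in 75 Control NK cells (153 and 139 CPM), of which 7 and 4 barcodes had all 3 chains. Ncr1, an NK cell receptor, had 88.3 and 118 CPM. Cd247, which was not on the list, had 79.1 CPM (57.2 to 107) in Sitagliptin NK cells and 58.8 CPM (34.2 to 94.1) in Control NK cells. Trbc1 had 160.3 CPM (129 to 197) and 157 CPM (118 to 206), against 184 and 109 CPM in T cells. Trbc2 had 109.8 CPM (85.0 to 140) and 84.8 CPM (55.4 to 124), against 486 and 532 CPM in T cells. With both beta genes left out of the class call, Trbc1 per Trbc2 was 1.35 (0.989 to 1.84) in Sitagliptin NK cells, an interval that includes 1, and 1.79 (1.12 to 2.93) in Control NK cells, against 0.372 and 0.197 in T cells. Of the 3 genes with at least 50 UMIs in NK cells, Cd247 (1.35, 0.752 to 2.52) and Trbc2 (1.29, 0.811 to 2.12) were past the higher limit, against 20.6% of 2722 genes (20.3% were lower, and 0 of the 3), and both intervals include 1. Trbc1 was at 1.02 (0.717 to 1.46). Cd8a, Cd8b1 and Cd4 had at most 1 UMI each in the NK cells of either library.

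The pDC were called by 5 genes that include Siglech, which had 808 and 706 CPM there by that rule. Coreceptor genes were found in pDC with few or no receptor UMIs, which is in part set by the limit on T cell list UMIs. Cd8b1 had 22 UMIs in 25 Sitagliptin pDC (174 CPM, 109 to 264) and 15 UMIs in 12 Control pDC (235 CPM, 132 to 388), and was seen in 11 and 6 barcodes. Cd8a had 10 UMIs (79.2 CPM, 38.0 to 146) in Sitagliptin pDC and 0 in Control pDC, where 3 UMIs would have been 47.1 CPM. Cd4 had 5 UMIs in each library (39.6 and 78.4 CPM). Cd3d, Cd3g, Cd247, Trac, Trbc1 and Trbc2 had 0 UMIs in both libraries, and Cd3e had 1 UMI in the Sitagliptin library and 0 in the Control library. With the 3 CD3 chains left out of the class call they had 1 UMI in 25 Sitagliptin and 6 UMIs in 13 Control barcodes. Of the 14 T cell markers, 2 were detected in Sitagliptin and 1 in Control pDC. Other lists were read there too, with the monocyte list at 1672 and 1788 CPM and the macrophage list at 650 and 1192 CPM. The mature dendritic cell list had 594 and 31.4 CPM, and the tumour-like list 388 and 863 CPM. The part of such RNA in the coreceptor UMIs was not tested. Cd8b1 per Cd8a was 2.2 (0.9997 to 5.20) in Sitagliptin pDC, against 0.982 in the T cells of the same library. The number of barcodes is too small to set the libraries against each other.

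In the other classes the levels were low, in part by rule, since barcodes that met the T cell cutoffs were placed elsewhere. In monocytes, conventional and mature dendritic cells and neutrophils, each of the 10 genes had at most 8.78 CPM in the Sitagliptin library and at most 22.1 CPM in the Control library, the highest being 1 Cd8a UMI in 9 type 1 dendritic cells. In macrophages with no other T cell list UMI the levels ran from 0.676 CPM (Cd4) to 4.18 CPM (Cd3d) in the Sitagliptin library and from 0.817 CPM (Cd4) to 4.78 CPM (Cd3d) in the Control library. Barcodes low in Ptprc, the gene for CD45, with tumour-like markers had 0 (Cd4) to 1.23 CPM (Cd3d) in the Sitagliptin and 0.155 (Cd4) to 1.91 CPM (Cd8a) in the Control library. Cd3d was found in 2.89% of those Sitagliptin macrophages and 2.68% of the Control macrophages, against 85.3% and 86.3% of T cells. That contrast is in part set by the choice of macrophages with no other T cell list UMI. Among all macrophages Cd3d was found in 4.51% of Sitagliptin and 5.38% of Control barcodes.

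**Figure D5:**
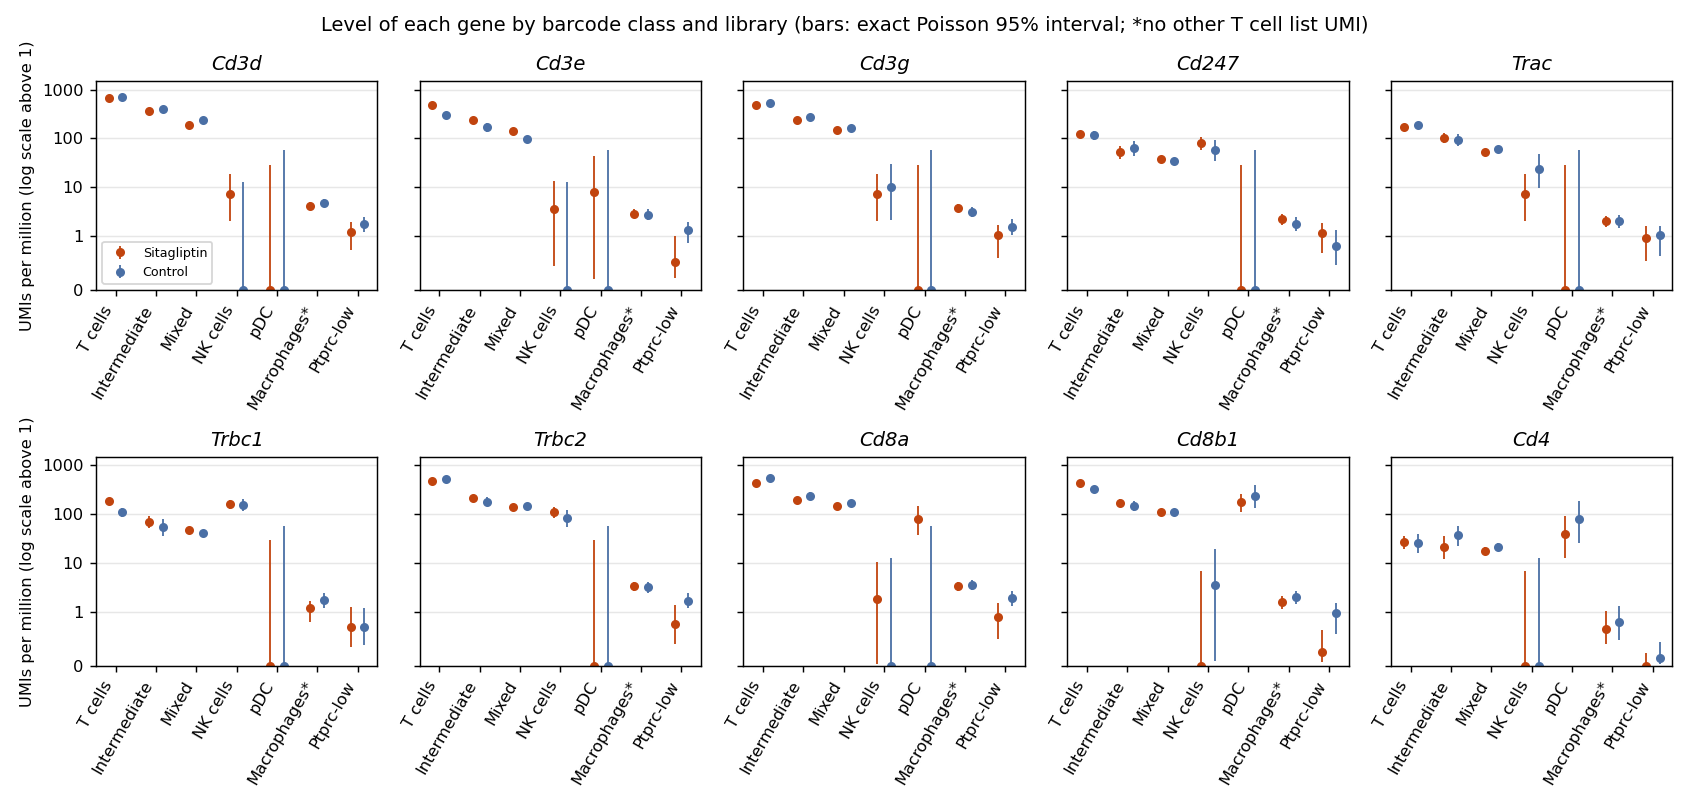
Level of each gene in CPM by class, on an axis that is logarithmic above 1 and linear below, Sitagliptin left of Control, with exact Poisson 95% intervals. All genes are found in T cells and in intermediate and mixed barcodes. Cd247, Trbc1 and Trbc2 stand at 58.8 to 160.3 CPM in NK cells. Cd8b1 and Cd4 are found in pDC of both libraries, and Cd8a in Sitagliptin pDC. All genes are under 5 CPM in macrophages with no other T cell list UMI.

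Genes of receptor signalling were read in T cells beside the chains. Of 35 genes on the list, 33 had at least 50 UMIs, 1 was higher and 8 were lower, against 13.5% and 21.3% of all genes. The median ratio was 1.02, with 18 genes over 1 and 15 under. The 4 highest were Grap2, the adaptor that links SLP-76 to LAT, at 221 CPM in Sitagliptin and 171 CPM in Control T cells (1.29, 1.06 to 1.58), the diacylglycerol kinase Dgka (1.24), Ubash3a (1.23), a suppressor of receptor signalling, and the adaptor Sla2 (1.21). The intervals of Dgka, Ubash3a and Sla2 include 1. The 4 lowest were the exchange factor Vav1 at 23.1 and 43.3 CPM (0.533, 0.330 to 0.862), the transcription factor Nfatc1 (0.668, 0.438 to 1.02), the phosphatase Ptpn6 (0.687, 0.496 to 0.956) and the kinase Csk (0.692, 0.431 to 1.12). The other 4 called lower were Lat (0.716), Nfatc2 (0.742), Zap70 (0.758) and Malt1 (0.763). Lat is the adaptor that ZAP-70 phosphorylates, and it had 162 CPM in Sitagliptin and 226 CPM in Control T cells.

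Of other receptor chains, Fcer1g was lower in Sitagliptin T cells and the rest were rare. Fcer1g, a signalling gamma chain of NK cells and myeloid cells, had 173 CPM in Sitagliptin T cells and 482 CPM in Control T cells (0.359, 0.308 to 0.419). Tyrobp, an adaptor of NK and myeloid cells, had 198 and 421 CPM, and the part of such cells in this difference was not tested. Trdc, the delta constant gene, had 10 and 13 UMIs (6.08 and 15.2 CPM), and the 4 gamma delta genes together summed to 31.6 and 48.0 CPM. Ptcra, the pre-T alpha chain, had 0 UMIs in both.

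The genes whose levels were most alike were sought over 24 points, 12 classes in each library, among 12036 genes by Pearson's r of log2(CPM + 1). The points share libraries and, for T, intermediate and mixed barcodes, T cell RNA, so r is a description. Trbc1 was followed most closely by Fasl (0.995), Nrgn (0.994) and Cd96 (0.994), and Trbc2 by Klrc1 (0.984), Ifng (0.977) and Gstp3 (0.960). Cd247 was followed by Lck (0.971), Gzmb (0.957) and Ms4a4b (0.956). Fasl, Klrc1, Ifng and Gzmb are genes of cytotoxic T and NK cells. For the CD3 chains the nearest genes were Hdgfl3 (0.963), Gm20275 (0.962) and Gm8369 (0.952) for Cd3d, Themis (0.953), Izumo1r (0.950) and Gm156 (0.950) for Cd3e, and Agbl4 (0.972), Cxcr6 (0.968) and Gm20275 (0.955) for Cd3g. Themis was itself used to call T cells. Trac was nearest to Neb (0.968), Filip1 (0.961) and Gm39323 (0.955). Cd8a was nearest to Cd6 (0.895), also a calling gene, Ccl1 (0.892) and Sv2c (0.889). Cd8b1 and Cd4 had the same 3 nearest genes, Gpm6b (0.943 and 0.962), Fam169b (0.911 and 0.902) and Sntb1 (0.871 and 0.881). The pDC points of these genes rest on few UMIs, 22 and 15 for Cd8b1 and 5 in each library for Cd4. The part of those points in the shared nearest genes was not tested, so these values do not show Cd8b1 and Cd4 in the same barcodes.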

How the data were processed

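UMI counts per gene and barcode were deposited by the authors as 1 matrix per library, made with a 5' droplet kit per the labels' protocols. The aligner, the genome build used for counting and the filters are not stated in the labels, headers or methods used here, and all barcodes held at least 2001 UMIs. The 10 genes, the marker lists and the comparisons were chosen with earlier results of these data known, and the class limits after the distributions of marker UMIs were seen.

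T cells had at least 5 UMIs of 14 T cell genes and 2 of 9 core genes, with under 12 macrophage-list UMIs per 10000. Barcodes from there to 30 were intermediate and above it mixed. NK cells had at least 5 UMIs of 10 NK genes, at most 1 core UMI and under 5 T cell list UMIs. Macrophages and the other classes kept the same T cell limits. The gene being read was left out of the lists each time, and both genes for a ratio between chains, so the number of barcodes varies by gene. Scrublet's own threshold called 0% of barcodes as doublets, so none were removed, and an alternative dropped the highest 6%.

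CPM is a gene's UMIs per 1000000 UMIs of the class. Intervals are exact Poisson for CPM, exact Clopper-Pearson for shares, exact conditional binomial for ratios and Wald on the log scale for ratios of ratios, all at 95%. With 1 library per diet there is no test. Genes needed 50 UMIs over both libraries for a call. The named genes were the 10 genes, the 4 highest and 4 lowest signalling genes and, for likeness, 3 genes each among those with at least 200 UMIs; the other signalling genes called lower were named after their values were seen. The software was Python 3.11.15, numpy 2.4.6, scipy 1.17.1, pandas 2.3.3, scanpy 1.11.5, matplotlib 3.10.9 and biopython 1.88, and the calculations were tested on simulated data.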

Additional observations from a re-analysis of the deposited data

How the results depend on the processing

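No paired analysis was possible because each diet has 1 library. Over 11 alternatives none of the 10 genes' calls in T cells turned to the opposite direction. The Cd3e ratio stayed between 1.43 and 1.77, Trbc1 between 1.46 and 2.25 and Cd8b1 between 1.27 and 1.57, and 3 genes were called higher under each. Cd4 was at 1.32 with no cycling-list UMI and 1.29 after thinning, under 50 UMIs in both. The number called lower was 1 in place of 0, namely Cd8a, with the limit on macrophage UMIs divided by 2, with no cycling-list UMI, and with no macrophage-list UMI. Cd8a was at 0.948 (0.887 to 1.01) and Cd247 at 1.18 (1.03 to 1.36) with intermediate and mixed barcodes counted as T cells. Over 10 alternatives the Cd3e per Cd3d ratio of Sitagliptin to Control stayed between 1.44 and 1.76. The Trbc1 per Trbc2 value was 1.42 and the Cd8b1 per Cd8a value 1.34 with intermediate and mixed barcodes counted as T cells, and Cd8b1 per Cd8a was 2.05 with no macrophage-list UMI. The causes of these moves were not tested. The genes called either way were 34.9% of all genes in T cells, and 53.1% with at least 1 UMI in each library as the only filter. The signalling list gave 9 calls, and 11 or 12 under its alternatives. The alternatives without macrophage-list UMIs, with intermediate and mixed barcodes as T cells, and without the shared barcode sequences were chosen after seeing the data. Counts under 50 UMIs limit Cd4 in intermediate barcodes and NK cells, and all 10 genes in pDC.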
